A study of Mus musculus with 30 samples.

Results

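The transcripts described here are those of 53 mouse genes of the cell division cycle and the p53 pathway. They were listed by symbol and matched to the Ensembl gene named beside each called N6-methyladenosine (m6A) bin. Of the 53 genes, 52 carried a bin in at least 1 of 15 lists, among 13765 genes with a bin in any list. The gene without a bin in any list was Rbl1, which encodes the pocket protein p107. The study profiled m6A in mouse embryonic stem cells of strain C57BL/6, grown with leukemia inhibitory factor on gelatin, in 5 lines with 3 replicates each. WT cells were wild type, and KO cells lacked METTL14. The other lines carried the same knockout and had METTL14 put back, as the unchanged protein in KO+WT, or as the arginine methylation-deficient forms 5RK and 13RK in KO+5RK and KO+13RK. No label gives the number of clones behind a line, the promoter of the returned METTL14 or its level. Whether replicates were separate cultures is not stated either, and the p-values then measure only how these lists vary.

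m6A is a methyl group added to adenosines within mRNA. A complex of METTL3, which holds the catalytic site, and METTL14, which helps to bind the RNA, places it mostly near stop codons and in long last exons, and reader proteins use it to shorten the life of many transcripts. The p53 protein halts the cycle or starts cell death after damage. Its level is held down by the ubiquitin ligase MDM2 and the related MDM4. Cyclins and their kinases drive the cycle, pocket proteins hold back the E2F factors that switch on S-phase genes, and the licensing proteins load the MCM helicase on replication origins.

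Each list gives bins of 100 nt called as enriched in 1 immunoprecipitated library. The number of bins in a gene is a number of calls. It is not a level of expression or of methylation, and a gene with less RNA can lose calls without losing m6A. Fewer transcripts and less m6A per transcript cannot be told apart in it. The read depth behind a call is unknown, so no counting interval can be given, and a bin that was not called may still be methylated. Lists differed in length, from 6328 bins in the shortest KO list to 23164 in the longest WT list. Of 12 embryonic stem cell markers, 10 carried a bin in every WT and KO+WT list, 10 or 11 in every list of the arginine mutants, and 5 to 9 in the KO lists. Pou5f1 and Dppa5a had none in WT. Of 9 fibroblast markers, 2 or 3 carried a bin in each WT list and 0 to 4 in each other list. Their bins summed to 24 to 31 per list in WT, 2 to 7 in KO, 1 to 4 in KO+WT, 0 or 1 in KO+5RK and 0 to 2 in KO+13RK. The WT bins were those of Fn1, Vim and the collagen gene Col1a1, which also had a bin in KO. Col1a2, Col3a1 and Postn had no bin in any line. The part of other cells in the differences between WT and the other lines was not tested. Mettl14 itself had 1 bin in each of 2 KO+5RK lists and none elsewhere, which does not check the knockout.

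RefSeq windows of the same build (GRCm38.p6), from 250 bases before to 50 after a transcript start, were at hand for 41 of the 53 genes. The first 30 transcribed bases are shown for the 4 genes whose window overlapped a bin called in 5 or more lists, since no other letters near called bins were used here. Capitals mark the 4-letter core GGAC, the same with A or T as its first base, and these forms with A as their second base, which are the letters in which m6A is usually found, searched on both strands with overlaps allowed and capitalised on the transcript strand.
Cdc20: cgctagcagcggagagtttaaGAACaacag
Mcm7: cacatgggTGACgacgtttcgcgccaattt
Trp53: tttcccctcccacgtgctcaccctggctaa
Cdkn1a: tgcagcagccgagaggtgtgagccgccgcg
The bases lie at chr4:118437314-118437343 on the minus strand (Cdc20), chr5:138171854-138171883 on the minus strand (Mcm7), chr11:69580359-69580388 on the plus strand (Trp53) and chr17:29093769-29093798 on the plus strand (Cdkn1a). Counted from the first transcribed base, the called bin covered bases 43 to 142 in Cdc20, 1 to 100 in Mcm7, 2 to 101 in Trp53 and 12 to 111 in Cdkn1a. The bin of Cdc20 therefore begins after the letters shown. That of Cdkn1a lies 2850 nt from the start of the RefSeq gene, at a transcript start inside it, and is not counted as near the gene start in what follows. The bin was called in 15 lists for Cdc20, 10 for Trp53, 6 for Cdkn1a and 5 for Mcm7. Cdc20 and Mcm7 held 1 core form on each strand in these 30 bases, and Trp53 and Cdkn1a held none on either strand. Over the first 30 bases of all 32851 start windows, 43.7% held a core form on the transcript strand and 42.5% on the other strand, so a match of this kind is common.

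The number of these genes with a bin was highest in WT and lower in each other line, an order that was not kept when all lists were given the same length. It was 44, 45 and 42 of 53 in the WT lists, 24, 31 and 34 in KO, 35, 36 and 30 in KO+WT, 34, 35 and 34 in KO+5RK, and 29, 30 and 37 in KO+13RK. The line means were 43.7 ± 1.53 (SD, n = 3), 29.7 ± 5.13, 33.7 ± 3.21, 34.3 ± 0.577 and 32.0 ± 4.36. Every WT list lay above every other list, while the ranges of the 4 other lines overlapped. With every list reduced to its 6328 bins of smallest p, the means were 22 ± 2.00 for WT, 27.3 ± 2.89 for KO, 21.0 ± 3.61 for KO+WT, 23.7 ± 1.53 for KO+5RK and 26.0 ± 3.00 for KO+13RK. Of all genes with a bin in any list, the WT lists called 57.0%, the KO lists 31.8%, the KO+WT lists 47.5%, the KO+5RK lists 42.8% and the KO+13RK lists 38.3%. The 53 genes stood above these shares in every line, at 82.4%, 56.0%, 63.5%, 64.8% and 60.4%. Their bins numbered 104, 113 and 103 in WT, 37, 58 and 68 in KO, 76, 88 and 65 in KO+WT, 69, 70 and 71 in KO+5RK and 59, 53 and 85 in KO+13RK. As a share of all bins in a list, the order of line means was reversed, from 0.470% ± 0.0254 for WT through 0.501% ± 0.0388 for KO+WT, 0.572% ± 0.0557 for KO+5RK and 0.644% ± 0.116 for KO+13RK to 0.689% ± 0.103 for KO. These genes took a larger share of the short lists than of the long ones. Within a list, the median enrichment value of their bins ranked at percentile 43.4 ± 1.36 for WT, 39.3 ± 3.35 for KO, 47.1 ± 3.23 for KO+WT, 40.7 ± 1.30 for KO+5RK and 40.0 ± 9.31 for KO+13RK.

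**Figure D1:**
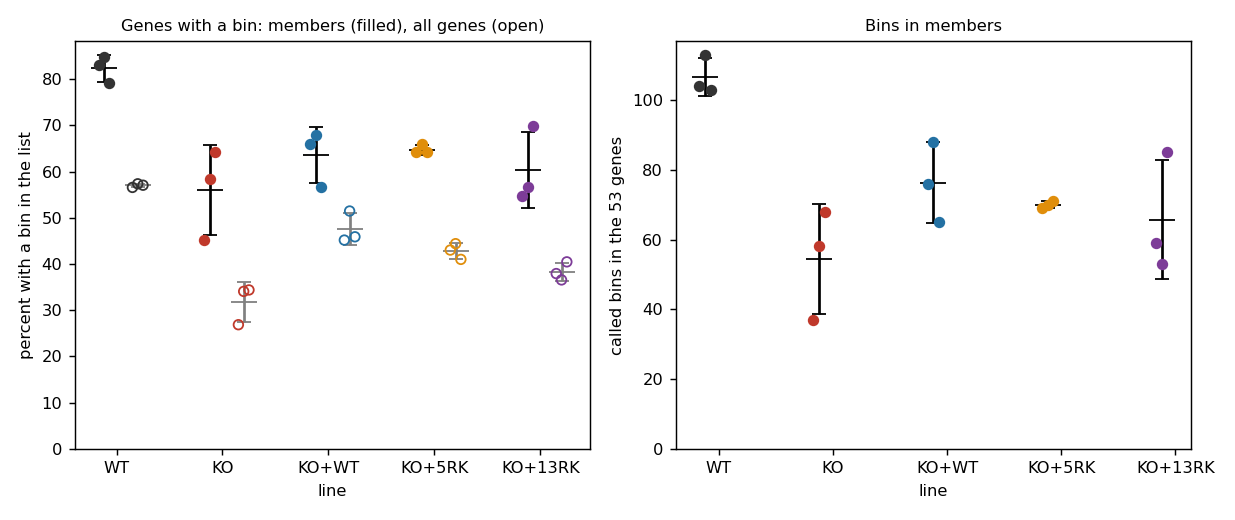
Left, the percent of the 53 genes with a bin in each list (filled points) and of all 13765 genes (open points), by line. Right, the number of bins in the 53 genes. Points are lists, and bars are the mean ± SD of 3 lists. WT lists stand highest in both panels, at 42 to 45 genes and 103 to 113 bins, and among the 53 genes the ranges of the other lines overlap.

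The number of lists with a call varied among these genes. A bin was called in all 15 lists for 8 of them: Ccnd1 (cyclin D1, which starts the cycle with CDK4 and CDK6), Cdc25a (a phosphatase that activates the kinases), Trp53, Mdm2, Cdc20 (an activator of the anaphase-promoting complex), Gmnn (geminin, which blocks licensing), Mcm3 and Mcm5. Another 11 were called in 1 to 5 lists, namely Ccnd2, Ccne2, Ccnb1, Ccnb2, Cdk2, Cdkn2a, Cdc25c, Rb1, E2f4, Plk1 and Bax, and the other 33 in 6 to 14 lists. No KO list held a bin for 9 genes that had one elsewhere: Ccnb1, Ccng2, Cdkn1b, Rb1, Rbl2, E2f2, E2f5, Aurkb and Mcm6. Of these, Aurkb and Mcm6 were called in all 12 lists of the lines with METTL14. Rb1 was called in WT lists only. The shares of all genes called in all 15 lists, or in no KO list but elsewhere, are not given here. These counts are therefore not read as traits of these genes. All 52 genes passed the filter of a bin in at least 3 lists, so the tests left out Rbl1 alone.

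**Figure D2:**
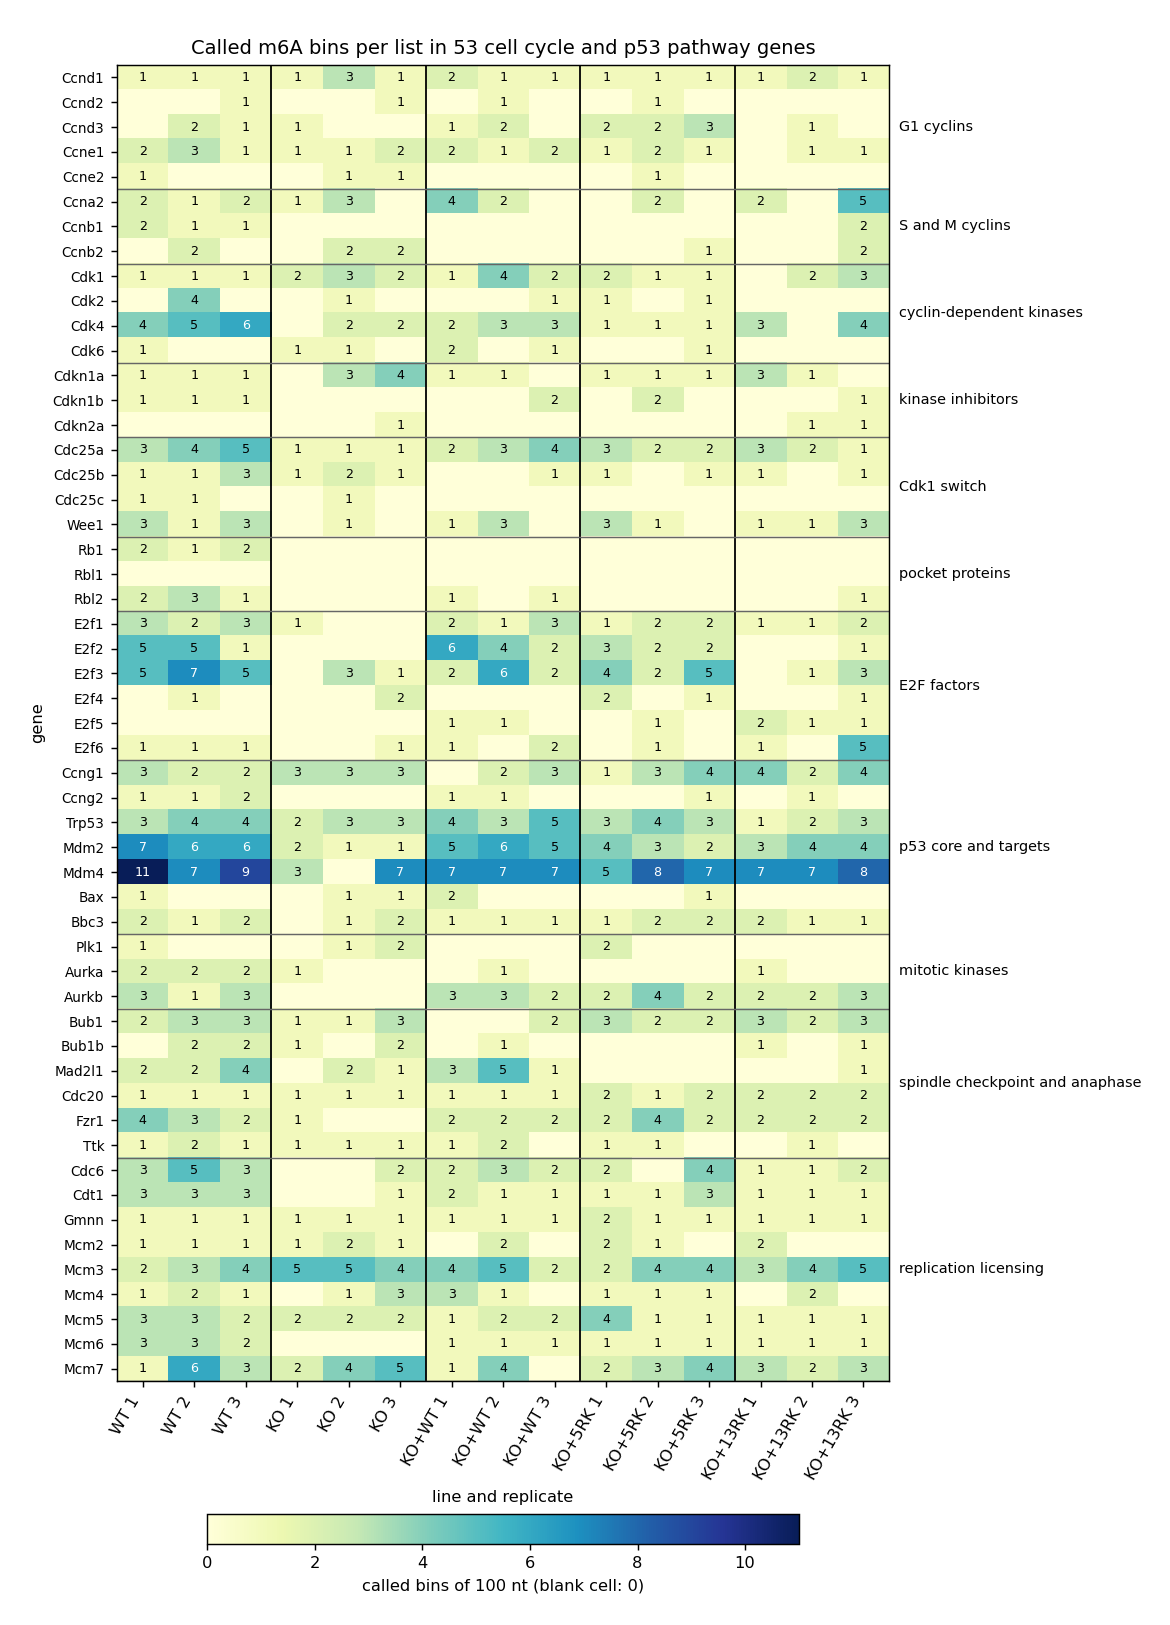
Number of called bins of 100 nt in each of the 53 genes (rows, grouped by role) and each of the 15 lists (columns, grouped by line). A blank cell is a list without a bin in the gene. Rbl1 is blank throughout, and Aurkb and Mcm6 are blank only in the 3 KO columns.

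Loss of METTL14 asked which calls depend on it. Of the 52 genes tested, 17 had fewer bins in KO than in WT and none had more (limma on log2(bins + 1), Benjamini-Hochberg adjusted p under 0.05). That is 32.7% of them, and over the 9852 genes tested 32.7% were called lower and 1.37% higher, so the count stood at the background. The 17 included both tested pocket protein genes, 3 E2F genes, 3 licensing genes, 3 genes of the p53 group and 2 mitotic kinase genes, and no G1 cyclin or kinase inhibitor. The median difference was -0.37 over the 52 genes and -0.67 over all genes tested, with 34 of the 52 lower, 14 higher and 4 equal. At the equal list length the sign of the members' median turned, to 0.33, with 0 over all genes. At that length 37 of the genes could be tested, and 7 of them were called, 2 lower in KO (Fzr1 and Mcm6) and 5 higher (Ccne1, Ccng1, Gmnn, Mcm2 and Mcm3). Of all 6322 genes tested at this length, 21.3% were called, 757 lower and 587 higher. Of the 17 genes, 5 could not be tested at this length. The other 12 were all lower in KO by a smaller difference, and 10 of them did not pass (limma, adjusted p from 0.0702 to 0.527). With touching bins counted as 1 stretch, a choice made after the values were seen, 9 genes were lower, against 23.3% of all genes. Those 9 were Aurkb, Ccnb1, Ccng2, Cdc25a, E2f1, E2f2, Mcm6, Rb1 and Rbl2, all among the 17.

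**Figure D3:**
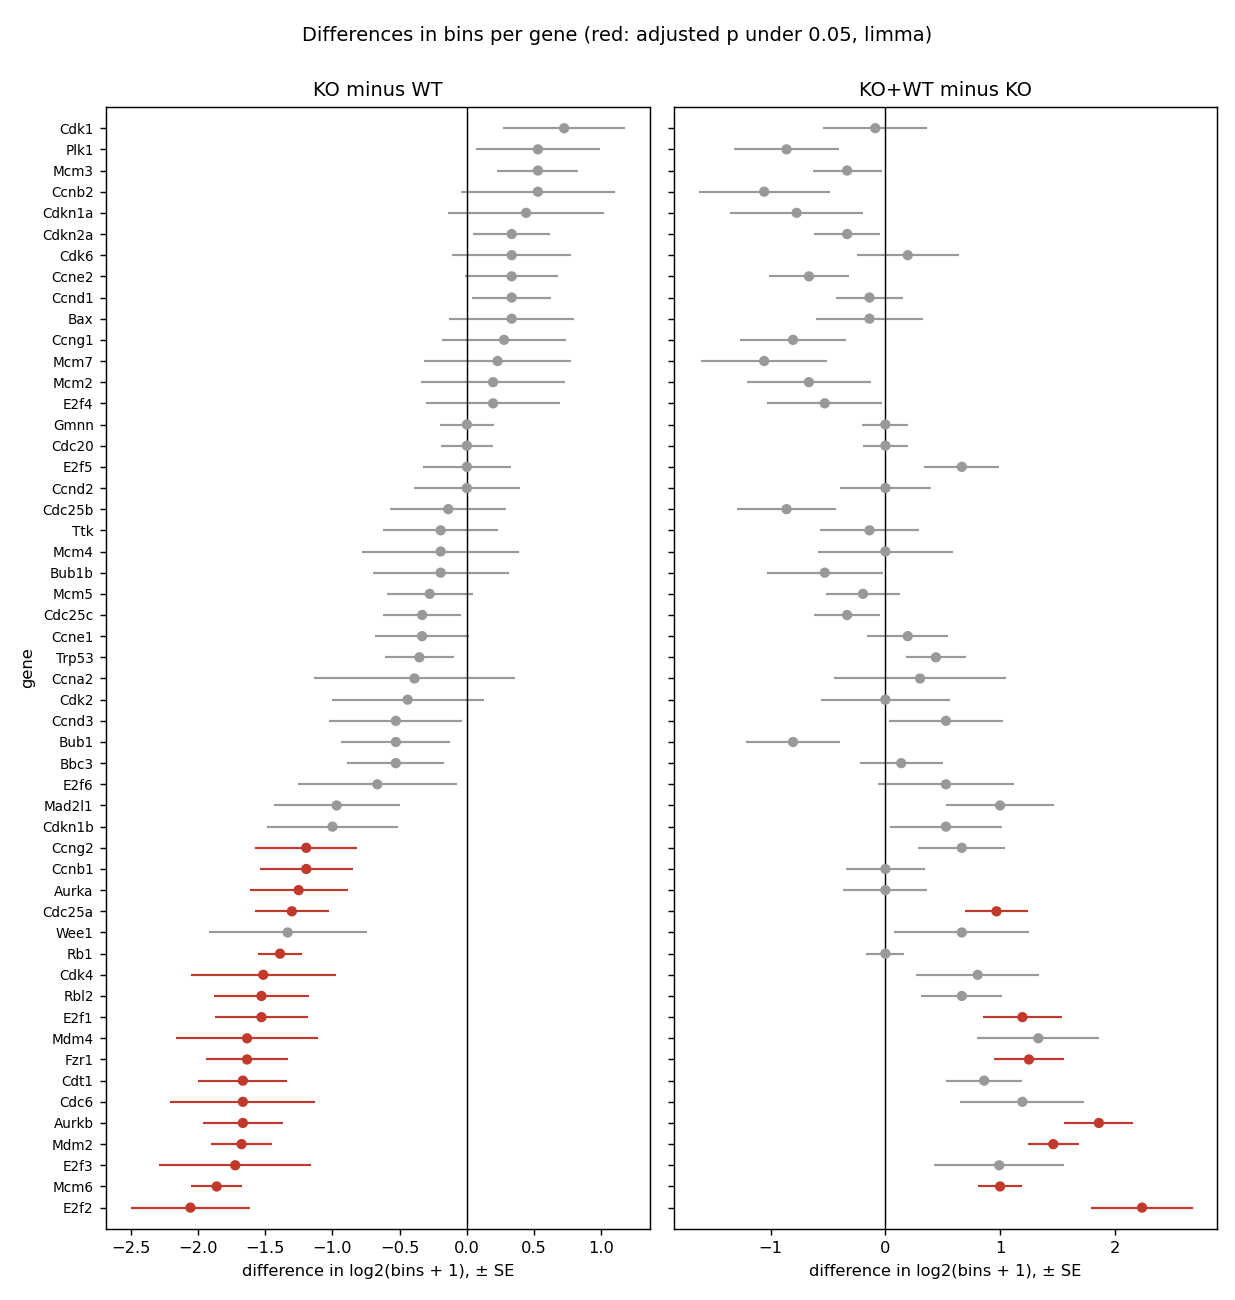
Difference in log2(bins + 1) for the 52 tested genes, KO minus WT on the left and KO+WT minus KO on the right, in the order of the left panel. Points are limma estimates, bars are ± 1 SE, and red marks an adjusted p under 0.05. All 17 red points on the left lie below 0 and all 7 on the right lie above it. Both comparisons use the same KO lists.

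In the p53 group, Mdm2 and Mdm4 had the most bins and fewer of them in KO, while Trp53 carried bins in every list. Trp53 had 3, 4 and 4 bins in WT, 2, 3 and 3 in KO, 4, 3 and 5 in KO+WT, 3, 4 and 3 in KO+5RK, and 1, 2 and 3 in KO+13RK. The KO and WT ranges met at 3 bins, and the difference was -0.35 ± 0.26 (SE; limma, adjusted p = 0.328). Mdm2 had 7, 6 and 6 bins in WT, 2, 1 and 1 in KO, 5, 6 and 5 in KO+WT, 4, 3 and 2 in KO+5RK, and 3, 4 and 4 in KO+13RK. No KO list reached any other line except at 2 bins in a KO+5RK list, and Mdm2 fell by 1.68 ± 0.22 on the log2 scale from WT to KO (limma, adjusted p = 0.000164). Mdm4 had 11, 7 and 9 bins in WT and 3, 0 and 7 in KO. It fell by 1.64 ± 0.53 (limma, adjusted p = 0.0303), but a KO list with 7 bins equalled the lowest WT list, and the call was lost without WT replicate 1, WT replicate 3 or KO replicate 2 (adjusted p up to 0.0820). Lines with METTL14 put back held 5 to 8 Mdm4 bins in every list.

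Of the other genes in the p53 group, only Ccng2 passed the test. Ccng2, a cyclin that slows the cycle, had 1, 1 and 2 bins in WT and none in KO, and fell by 1.19 ± 0.38 (limma, adjusted p = 0.0280). That call was lost without WT replicate 3 or any single KO replicate (adjusted p up to 0.0931). Ccng1, a direct p53 target, had 3, 2 and 2 bins in WT and 3 in each KO list. Cdkn1a, the p21 inhibitor of cyclin-dependent kinases, had 1 bin in each WT list and 0, 3 and 4 in KO, with a difference of 0.44 ± 0.58 (limma, adjusted p = 0.589). Its KO lists lay on both sides of WT. It had 1, 1 and 0 bins in KO+WT, 1 in each KO+5RK list, and 3, 1 and 0 in KO+13RK. Bbc3, which encodes the death protein PUMA, had 2, 1 and 2 bins in WT and 0, 1 and 2 in KO, and Bax, a pore-forming death protein, was called in 5 lists in all.

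Both called pocket protein genes lost their bins. Rb1, the retinoblastoma gene, had 2, 1 and 2 bins in WT and none in any other line, and fell by 1.39 ± 0.17 in KO (limma, adjusted p = 7.54e-05). Rb1 passed the filter of a bin in at least 3 lists through WT alone, and every other list held 0. The p-values of Rb1 are therefore no separate support for its loss. The 2 bins of Rb1 lay inside the span of another gene, Lpar6, so that their source is uncertain. Rbl2, which encodes p130, had 2, 3 and 1 bins in WT, none in KO or KO+5RK, 1, 0 and 1 in KO+WT and a single bin in 1 KO+13RK list. It fell by 1.53 ± 0.35 in KO (limma, adjusted p = 0.00521), and its bins lay within the span of Aktip. Strand is kept in these libraries and recorded for each bin, but the rule that assigned a bin to a gene is not known here.

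Among the E2F genes, those of the activators E2f1, E2f2 and E2f3 carried fewer bins in KO. E2f2 had 5, 5 and 1 bins in WT, none in KO, 6, 4 and 2 in KO+WT, 3, 2 and 2 in KO+5RK and 0, 0 and 1 in KO+13RK. It fell by 2.06 ± 0.44 from WT to KO, the greatest drop among the 52 genes (limma, adjusted p = 0.00359). E2f3 had 5, 7 and 5 bins in WT, 0, 3 and 1 in KO, 2, 6 and 2 in KO+WT, 4, 2 and 5 in KO+5RK, and 0, 1 and 3 in KO+13RK. KO and WT did not overlap, and E2f3 fell by 1.72 ± 0.56 (limma, adjusted p = 0.0318). The call was lost without any single WT replicate, and without KO replicate 1 or 3 (adjusted p up to 0.136). E2f1 had 3, 2 and 3 bins in WT and 1, 0 and 0 in KO, and fell by 1.53 ± 0.34 (limma, adjusted p = 0.00449). The repressor genes E2f4, E2f5 and E2f6 had 0 or 1 bins in each WT list, and E2f5 had none in WT or KO.

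Of the 8 cyclin genes of the G1, S and M phases and the 4 kinase genes, only Ccnb1 and Cdk4 passed the test. Ccnd1 had 1 bin in each WT list, 1, 3 and 1 in KO, 2, 1 and 1 in KO+WT, 1 in each KO+5RK list and 1, 2 and 1 in KO+13RK, and the KO difference was 0.33 ± 0.29 (limma, adjusted p = 0.422). Ccne1, the S-phase cyclin E1, had 2, 3 and 1 bins in WT, 1, 1 and 2 in KO, 2, 1 and 2 in KO+WT, 1, 2 and 1 in KO+5RK, and 0, 1 and 1 in KO+13RK. Its WT and KO lists overlapped, with a difference of -0.33 ± 0.35 (limma, adjusted p = 0.497). Ccnb1, the mitotic cyclin B1, had 2, 1 and 1 bins in WT, none in KO, KO+WT or KO+5RK, and 2 in 1 KO+13RK list. It fell by 1.19 ± 0.35 in KO (limma, adjusted p = 0.0179), a call lost without WT replicate 1 (adjusted p = 0.0654). Outside WT, Ccnb1 had a bin in 1 list only, so it passed the filter of a bin in at least 3 lists through WT. Its p-values are therefore no separate support for its loss. Cdk4, the G1 kinase, had 4, 5 and 6 bins in WT, 0, 2 and 2 in KO, 2, 3 and 3 in KO+WT, 1 in each KO+5RK list and 3, 0 and 4 in KO+13RK. It fell by 1.51 ± 0.54 (limma, adjusted p = 0.0456), and leaving out a single list ended the call in 10 of 15 cases (adjusted p up to 0.186), namely any WT, KO+WT or KO+5RK list or KO replicate 1. The Cdk4 bins called in all WT lists lay past the end of the RefSeq gene, within the span of Tspan31, so that their source is uncertain. Cdk1, the mitotic kinase, had 1 bin in each WT list and 2, 3 and 2 in KO. It was the only gene of the 52 whose KO lists all lay above WT, which 1.47% of all genes tested did, and its difference of 0.72 ± 0.45 did not pass the test (limma, adjusted p = 0.244). It had 1, 4 and 2 bins in KO+WT, 2, 1 and 1 in KO+5RK, and 0, 2 and 3 in KO+13RK.

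No kinase inhibitor gene passed the test, and of the 4 genes of the switch that activates CDK1 only Cdc25a did. Cdkn1b, the p27 inhibitor, had 1 bin in each WT list, none in KO, 0, 0 and 2 in KO+WT, 0, 2 and 0 in KO+5RK and 0, 0 and 1 in KO+13RK, and its KO difference did not pass the test. Cdkn2a, the locus of p16 and p19, had no bin in WT, KO+WT or KO+5RK, 1 bin in 1 KO list and 1 in each of 2 KO+13RK lists. Cdc25a had 3, 4 and 5 bins in WT, 1 in each KO list, 2, 3 and 4 in KO+WT, 3, 2 and 2 in KO+5RK and 3, 2 and 1 in KO+13RK. WT stood clear of KO, and Cdc25a fell by 1.30 ± 0.28 (limma, adjusted p = 0.00339). Wee1, which encodes the kinase that opposes the CDC25 phosphatases, had 3, 1 and 3 bins in WT and 0, 1 and 0 in KO, a difference of -1.33 ± 0.59 that did not pass (limma, adjusted p = 0.0978). These outcomes depended on the setting. Wee1 was called lower in KO with q under 0.005, beside 40.8% of all genes lower. Cdkn1b was called lower with enrichment at or above the median, beside 27.0%.

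Mitotic genes differed from one another. Aurkb, the kinase of the chromosomal passenger complex, had 3, 1 and 3 bins in WT, none in KO, 3, 3 and 2 in KO+WT, 2, 4 and 2 in KO+5RK, and 2, 2 and 3 in KO+13RK. Every list with METTL14 held at least 1 bin, and Aurkb fell by 1.67 ± 0.30 in KO (limma, adjusted p = 0.00124). Aurka, the spindle pole kinase, had 2 bins in each WT list, 1, 0 and 0 in KO, 0, 1 and 0 in KO+WT, none in KO+5RK and 1, 0 and 0 in KO+13RK. It fell by 1.25 ± 0.37 in KO (limma, adjusted p = 0.0186), a call lost without KO replicate 2 or KO replicate 3 (adjusted p up to 0.0683). Fzr1, the activator of the anaphase-promoting complex in G1, had 4, 3 and 2 bins in WT, 1, 0 and 0 in KO, 2 in each KO+WT and KO+13RK list and 2, 4 and 2 in KO+5RK, and fell by 1.64 ± 0.30 (limma, adjusted p = 0.00147). Its relative Cdc20 had exactly 1 bin in every WT, KO and KO+WT list.

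Of the 9 licensing genes, 3 had fewer bins in KO. Mcm6 had 3, 3 and 2 bins in WT, none in KO and 1 in each list of every line with METTL14 put back, and fell by 1.86 ± 0.19 (limma, adjusted p = 2.96e-05). Cdt1, which brings the MCM helicase to origins, had 3 bins in each WT list, 0, 0 and 1 in KO, 2, 1 and 1 in KO+WT, 1, 1 and 3 in KO+5RK and 1 in each KO+13RK list, and fell by 1.67 ± 0.33 (limma, adjusted p = 0.00225). Cdc6, its partner in loading, had 3, 5 and 3 bins in WT, 0, 0 and 2 in KO, 2, 3 and 2 in KO+WT, 2, 0 and 4 in KO+5RK and 1, 1 and 2 in KO+13RK. It fell by 1.67 ± 0.54 (limma, adjusted p = 0.0302), a call lost without WT replicate 2, KO replicate 1 or KO replicate 2 (adjusted p up to 0.108). Other subunits of the helicase did not follow Mcm6. Mcm3 had 2, 3 and 4 bins in WT and 5, 5 and 4 in KO, and Mcm5 had 3, 3 and 2 in WT and 2 in each KO list. Gmnn had 1 bin in every list but 1, a KO+5RK list with 2.

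By the stricter rule of a call in all 3 lists of a line and in none of the other, KO lost 8 of the 39 genes that every WT list held, and gained none. They were Aurkb, Ccnb1, Ccng2, Cdkn1b, E2f2, Mcm6, Rb1 and Rbl2. Over all genes called in every WT list, 31.5% were lost, and of those called in every KO list 4.89% were gained. At equal list length 1 gene was lost and 3 were gained. The shares of all genes lost and gained at that length are not given here, so these counts are not read as traits of these genes.

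When the 3 KO lists were set against all 12 lists with METTL14, no gene passed the exact permutation test over all choices of 3 lists from 15, among the 52 or among all 9852 (0% called). At an unadjusted p under 0.05 there were 8 of the 52, all lower in KO, and 1510 of all genes. The 8 were Cdt1, Mdm2, Fzr1, Aurkb, Mcm6, E2f1, Cdc25a and Mdm4. Aurkb reached 0.0022, the smallest p the design allows, and 0.0565 after adjustment. The same contrast in limma called 9 of the 52, all lower in KO, with 17.8% of all genes lower and 1.74% higher, and these 9 were the same 8 with E2f2 added.

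Bin by bin, these genes held 282 distinct bins, of which 108 were called in 1 list only and 4 in all 15. Bins called in all WT lists numbered 63, in 35 genes. Of these, 47 bins in 25 genes (74.6%) were called in no KO list, and the share over all genes was 80.2%. None of the 47 lay within 500 nt of the gene start, 31 lay within 2000 nt of the gene end and 16 elsewhere. The same split over the lost bins of all genes is not given here. Bins called in all WT and all KO lists numbered 12, with 4 near the start (in Ccnd1, Cdc20, Mcm5 and Trp53), 3 near the end (in Ccne1, Gmnn and Mdm2) and 5 elsewhere (in Ccng1, Mcm2, Mcm3, Trp53 and Ttk). No transcript annotation was used here, so distances run along the gene from its RefSeq start or end to the middle of the bin and include introns.

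Fisher's exact test of each bin, 3 KO lists against the 12 lists with METTL14, was run on 138 bins of these genes. Called less often in KO were 14 of them in 10 genes, against 4.76% of all 24770 bins tested, and each stood in every one of the 12 lists and was missing from KO (adjusted p = 0.0378). No bin passed when any single KO replicate was left out, which leaves 2 KO lists. In Mdm2 they were chr10:117690076-117690175 and chr10:117690276-117690375, 1250 and 1450 nt before the gene end. Between Mdm2 bins lost in KO stood a neighbour, chr10:117690376-117690475, that was called in all WT and all KO lists. In Mdm4 there were 3 adjoining bins, from chr1:132991885-132991984 to chr1:132992085-132992184, 5829 to 6029 nt before the gene end. Fzr1 had a pair at chr10:81367123-81367222 and chr10:81367223-81367322, 293 and 393 nt before its end. The single bins were those of Mcm6 (chr1:128331791-128331890, 265 nt before the end), Cdt1 (chr8:122572916-122573015, 165 nt), Mcm3 (chr1:20803269-20803368, 352 nt), Bbc3 (chr7:16317394-16317493, 891 nt), E2f1 (chr2:154560608-154560707, 1257 nt), Cdc25a (chr9:109892480-109892579, 1366 nt) and Aurkb (chr11:69048748-69048847, 2867 nt). Of the 14 bins, 10 thus lay within 2000 nt of the gene end, and the others were those of Mdm4 and Aurkb.

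A single bin of these genes was called more often in KO, against 1.05% of all bins tested. It was chr8:75110070-75110169 in Mcm5, 651 nt from the gene start, called in all 3 KO lists and in no other list (Fisher's exact test, adjusted p = 0.0378). Only bins called in at least 3 lists were tested, and this bin was tested through the KO lists alone. Its p-value is therefore no separate support for a gain. Mcm5 thus held a start bin in all 15 lists (chr8:75109670-75109769, 251 nt), this KO bin, and an end bin at chr8:75127470-75127569 that was called in 3 WT lists, no KO list, 2 KO+WT lists and 1 KO+5RK list. Mcm3 also changed its bins while its total did not pass the test. The bin 352 nt before its end was absent from KO alone. The bin chr1:20805769-20805868 was called in all KO lists and no WT list, as were chr10:69340447-69340546 in Cdk1 and chr11:40750653-40750752 in Ccng1. None of them passed Fisher's exact test, and all were also called with METTL14 put back. Of the 12 lists with METTL14, 7 held the Ccng1 bin, 4 the Cdk1 bin and 1 the Mcm3 bin. The share of all bins with this pattern is not given here.

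**Figure D4:**
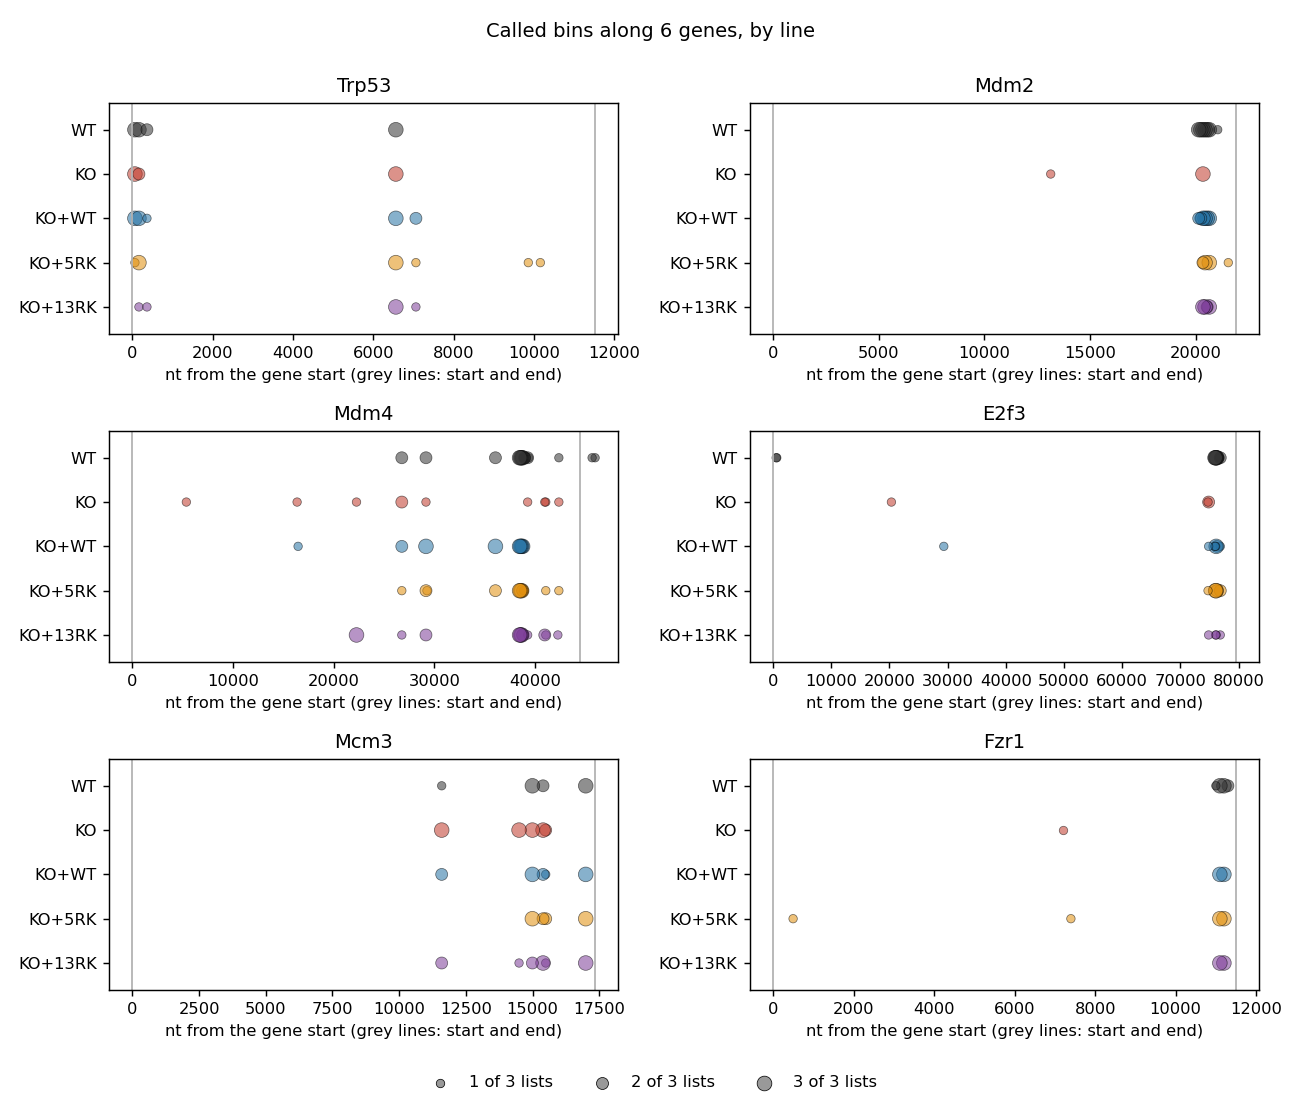
Position of every called bin along 6 genes, as nt from the gene start to the middle of the bin (x axis), by line (rows). Circle area grows with the number of lists calling the bin, from 1 to 3, and grey lines mark the start and end of the RefSeq gene. Mdm2, Mdm4, E2f3 and Fzr1 hold a cluster of bins near the right that thins out or is absent in KO, while Trp53 in KO keeps 2 bins at its start and a bin about the middle of the gene.

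Trp53 held 7 distinct bins, 3 near its start, 2 near its end and 2 between. The bin chr11:69586860-69586959, 6561 nt from the gene start, was called in all 15 lists. The start bin whose letters are shown above was called in all 3 lists of WT, of KO and of KO+WT, in 1 list of KO+5RK and in none of KO+13RK. Its neighbour at chr11:69580460-69580559 was called in 3, 2, 3, 3 and 1 lists in the same order. The remaining start bin, chr11:69580660-69580759, was called in 2 WT lists, in none of KO, in 1 of KO+WT, in none of KO+5RK and in 1 of KO+13RK. The start bins thus differed from one another in KO. Bins at chr11:69587360-69587459 and near the gene end were called in at most 2 lists of a line, and in no WT or KO list. Among the genes with letters shown, the Cdc20 start bin was called in 3 lists of every line, the Cdkn1a bin in 1 WT, 2 KO, 1 KO+WT, 1 KO+5RK and 1 KO+13RK list, and the Mcm7 bin in 1, 2, 1, 1 and 0.

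Over all bins of the 53 genes, the share within 2000 nt of the gene end was 49.8% ± 3.00 for WT (SD, n = 3), 18.2% ± 2.28 for KO, 41.9% ± 4.33 for KO+WT, 39.5% ± 6.61 for KO+5RK and 44.0% ± 4.31 for KO+13RK. KO stood apart from every other line. The share within 500 nt of the start was 11.8% ± 3.75, 19.7% ± 3.18, 11.8% ± 2.31, 14.3% ± 2.49 and 11.2% ± 3.54. In numbers, start bins went from 8, 17 and 13 in WT to 6, 13 and 14 in KO, and end bins from 55, 53 and 51 to 6, 12 and 12. The start bins of the 2 lines overlapped and the end bins did not. Over all genes the shares in WT and KO were 33.6% and 14.9% near the end and 4.72% and 17.2% near the start.

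**Figure D5:**
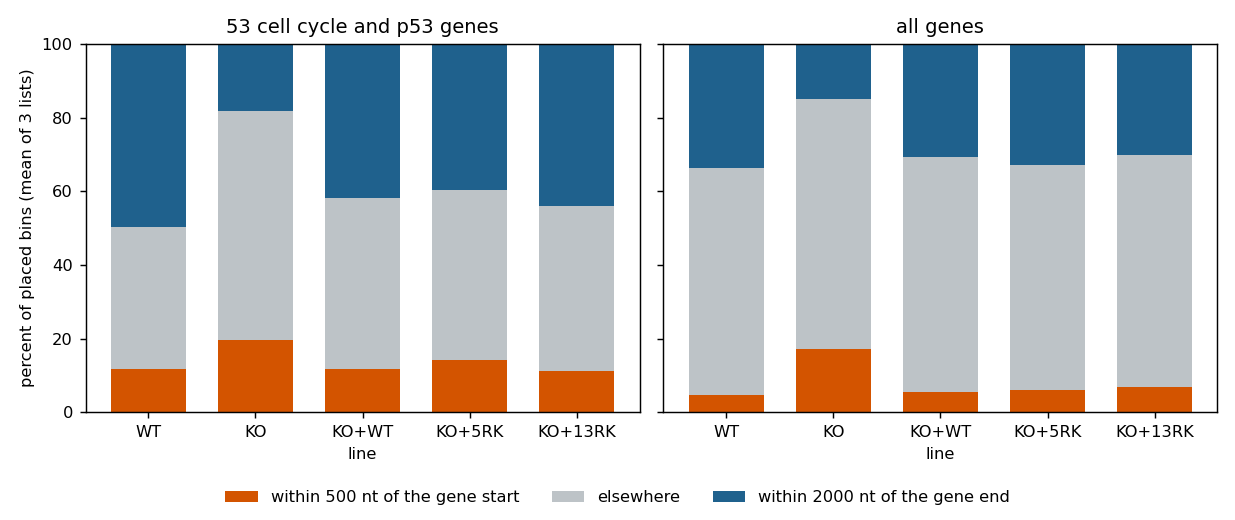
Share of called bins within 500 nt of the gene start, within 2000 nt of the gene end and elsewhere, by line, as the mean of 3 lists, for the 53 genes (left) and for all genes (right). Only bins placed on a RefSeq gene are counted. In both panels the end share is smallest in KO, at 18.2% in the 53 genes and 14.9% in all genes.

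Return of METTL14 asked which calls come back. In KO+WT, 7 of the 52 genes had more bins than in KO and none had fewer, with 15.0% higher and 1.14% lower over all genes tested. They were E2f2, Mdm2, Fzr1, Aurkb, Mcm6, E2f1 and Cdc25a, all lower in KO than in WT. The comparison shares the KO lists with that of KO and WT, so the same KO values enter both. E2f2 rose by 2.24 ± 0.44 (limma, adjusted p = 0.00439), Aurkb by 1.86 ± 0.30 (adjusted p = 0.00121), Mdm2 by 1.46 ± 0.22 (adjusted p = 0.000818) and Mcm6 by 1.00 ± 0.19 (adjusted p = 0.00341). Fzr1 rose by 1.25 ± 0.30 (limma, adjusted p = 0.0133), E2f1 by 1.19 ± 0.34 (adjusted p = 0.0310) and Cdc25a by 0.97 ± 0.28 (adjusted p = 0.0306). Without KO replicate 2, 4 genes were called. The Cdc25a call was lost without any single KO replicate or KO+WT replicate 2 or 3 (limma, adjusted p up to 0.107). The E2f1 call was lost without KO replicate 2 or 3 or KO+WT replicate 1 or 3 (up to 0.111), and that of Fzr1 without KO replicate 2 or 3 (up to 0.0521). At equal list length 6 genes were called, 3 higher (Aurkb, Fzr1 and Mcm6) and 3 lower (Ccne1, Mcm2 and Mcm7), against 16.6% of all genes, 633 higher and 414 lower. With touching bins joined, 3 were higher (Aurkb, E2f2 and Mcm6, against 11.4%). Called in every KO+WT list and in no KO list were 3 of the 22 genes called in all KO+WT lists, again Aurkb, E2f2 and Mcm6, against 25.7% over all genes. None of the 16 genes that every KO list held was missing from KO+WT, against 5.67% over all genes. With 1 list fewer the rule is easier to meet, and it took 8 genes, lost and gained together, without KO replicate 1, 5 without KO replicate 3 or KO+WT replicate 2, and 7 without KO+WT replicate 3.

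Against WT, the KO+WT lists were lower in 2 genes and higher in none, with 3.59% lower and 0.223% higher over all genes. Rb1 fell by 1.39 ± 0.17 (limma, adjusted p = 0.000323), and Mcm6 by 0.86 ± 0.19 (limma, adjusted p = 0.0236). Without any single WT list Rb1 had a bin in only 2 lists and was not tested. The Mcm6 call was lost without WT replicate 1 or 2 or KO+WT replicate 1 or 3 (adjusted p up to 0.126). Rb1 and Ccnb1 were the 2 of 39 genes called in all WT lists and in no KO+WT list, against 5.84% over all genes. No gene of the 52 was gained, against 1.47% over all genes. By limma, 0 genes were called without WT replicate 1 or 2, and 1 without WT replicate 3 or KO+WT replicate 1. Lost or gained genes, 2 with all lists, numbered 4 without KO+WT replicate 2 and 6 without KO+WT replicate 3.

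Of the 47 bins lost from WT to KO, 14 were called in all 9 lists of the 3 lines with METTL14 put back, and 8 in none of them. The KO+WT lists called 63.8%, 72.3% and 59.6% of the 47, the KO+5RK lists 51.1%, 44.7% and 51.1%, and the KO+13RK lists 38.3%, 42.6% and 53.2%. The means were 65.2% ± 6.50, 48.9% ± 3.69 and 44.7% ± 7.67 (SD, n = 3), beside 62.3%, 48.9% and 36.9% over all such bins. Each KO+WT list lay above each list of the arginine mutants, and the mutants overlapped each other. The 8 bins that stayed absent lay in Aurka, Ccnb1, Cdc25b, Cdk4, Cdt1, Mcm6, Mcm7 and Rb1, and 4 of these genes (Aurka, Cdk4, Cdt1 and Mcm6) also held another lost bin that was called again in at least 1 of the 9 lists. In Mcm6 and Cdt1 that bin was called in all 9. Called in all KO+WT lists and in no KO+5RK list were 2 of the 47, in Cdk4 (chr10:127067635-127067734, past its RefSeq end) and Mdm2 (chr10:117690176-117690275). A bin of Cdc6 (chr11:98921502-98921601) was called in all KO+WT lists and in no KO+13RK list. The shares of all lost bins called in all 9 lists, in none, or in 1 line and not another are not given here. These counts therefore describe the 47 bins and are not read as traits of these genes.

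The arginine mutants asked whether METTL14 that cannot be methylated at these arginines gives the same calls. By limma, 0 of the 52 genes differed between KO+5RK and KO+WT, and over all genes 0.213% were lower and 0.0508% higher. In KO+13RK against KO+WT it was also 0, with 1.12% lower and 0.0609% higher over all genes. Between the mutants it was 0 again, with 0.193% lower and 0.0203% higher in KO+13RK. At an unadjusted p under 0.05 there were 3, 6 and 5 of the 52 in these limma comparisons, and 973, 1495 and 841 of all genes. With so few calls anywhere, values that missed the threshold are not shown to be alike. KO+WT lists serve in both comparisons with the mutants. By the exact permutation test of KO+WT against the 6 mutant lists, whose smallest p is 0.0119, no gene passed among 42 of the 52 tested or among 7605 (0% called). At an unadjusted p under 0.05 there were 4 of the 42 and 570 of all genes. The same contrast in limma called none of the 52, with 0.873% of all genes higher and 0.0406% lower in KO+WT.

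Those 4 genes were Mdm2 and Mad2l1, higher in KO+WT, and Cdc20 and Bub1, lower. Mad2l1, which holds back anaphase at the spindle checkpoint, had 3, 5 and 1 bins in KO+WT, none in KO+5RK and 0, 0 and 1 in KO+13RK. It had 2, 2 and 4 bins in WT and 0, 2 and 1 in KO, so that the KO lists overlapped KO+WT and the KO+5RK lists did not. Of its 8 distinct bins, 5 lay past the RefSeq gene end by 1333 to 1733 nt, and these held 6 of its 9 calls in KO+WT, so that their source is uncertain. The permutation p was 0.0238 for Mad2l1 and for Mdm2, and 0.612 after adjustment. Mad2l1 was the only 1 of the 22 genes called in all KO+WT lists that was called in no KO+5RK list, against 2.80% over all genes, and none was gained there, against 1.68%. From KO+WT to KO+13RK no gene was lost or gained by this rule, against 7.19% and 1.41% over all genes, and from KO+5RK to KO+13RK none, against 4.57% and 1.60%. Leaving out KO+WT replicate 2, KO+WT replicate 3 or KO+5RK replicate 2 gave 2 genes between KO+WT and KO+5RK. Bub1, a kinase of the same checkpoint, had 0, 0 and 2 bins in KO+WT against 2 or 3 in every list of the mutants, and 2, 3 and 3 in WT (exact permutation p = 0.0476, adjusted p = 0.635). Cdc20 had 1 bin in each KO+WT list, 2, 1 and 2 in KO+5RK and 2 in each KO+13RK list (exact permutation p = 0.0476, adjusted p = 0.635). The added Cdc20 bin, chr4:118437102-118437201, stood beside the start bin and was called in 2 KO+5RK and 3 KO+13RK lists and nowhere else.

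Among the lines with METTL14, E2f2 and Trp53 had their lowest mean in KO+13RK, as did other genes of the 52. The KO+13RK lists were also the shortest of these lines. Of the 52 genes, 24 were lower in KO+13RK than in KO+WT and 18 higher, beside 59.7% and 23.6% of all genes. The Trp53 mean of 2 bins in KO+13RK lay below that of 2.67 in KO. E2f2 had 6, 4 and 2 bins in KO+WT and 0, 0 and 1 in KO+13RK, a difference of -1.90 ± 0.44 that just missed the threshold (limma, adjusted p = 0.0581). It was called when touching bins were joined. For Trp53 the difference was -0.77 ± 0.26 (limma, adjusted p = 0.189), with ranges that met at 3 bins. Mdm2 lay below KO+WT in both mutants, by -0.69 ± 0.22 in KO+5RK (limma, adjusted p = 0.317) and -0.44 ± 0.22 in KO+13RK (limma, adjusted p = 0.383). E2f3 was not called here, but with q under 0.005 it was called lower in KO+13RK. That held against KO+WT (2.88% of all genes lower) and against KO+5RK (0.281% lower).

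From a list of 97 further genes of these pathways, 89 had a bin and 86 were tested. In KO against WT, 44 of the 86 (51.2%, beside 32.7% of all genes) had fewer bins and none had more, with a median difference of -1.22. In KO+WT against KO, 26 (30.2%, beside 15.0% of all genes) had more and none had fewer. The genes with the smallest p in both comparisons were Ccnt2, Cdc27, Orc3 and Orc2. Orc3, a subunit of the complex that marks replication origins, had 10, 10 and 9 bins in WT, none in KO, 8, 9 and 9 in KO+WT, 8, 5 and 9 in KO+5RK and 7, 3 and 4 in KO+13RK. Cdc27, a subunit of the anaphase-promoting complex, had 7, 9 and 8 bins in WT, none in KO and 3 to 7 in each list with METTL14 put back. In KO+WT against WT, 4 were lower (4.65%, beside 3.59% of all genes), namely Orc4, Orc1, Rrm1 and Trp53bp2. Orc4 had 1 bin in each WT list and none elsewhere, so it passed the filter through WT alone. Its call is therefore no separate support for a loss. In KO+13RK against KO+WT, 1 was lower (1.16%, beside 1.12% of all genes), the transcription kinase gene Cdk12, with 1, 0 and 1 bins against 5, 3 and 3 (limma, adjusted p = 0.0389).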

How the data were processed

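m6A-seq libraries from 15 immunoprecipitations, with 15 inputs that were not used here, came from 5 lines. Per the labels' protocols, fragmented mRNA was pulled down with an antibody to m6A, and a stranded kit was used. Build GRCm38, kallisto 0.43.0 and STAR 2.5.3a appear, without roles, per the submitters' processing notes, and a peak caller is not given in the sources. Each of the 15 deposited lists carries the name of 1 replicate and holds bins of 100 nt with an enrichment value, a score of the authors' whose scale is not given, and a p-value and q-value, all deposited q under 0.05. The score ranked bins within a list and served as a filter.

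The 53 genes and the lists of further genes were chosen with earlier results of these data known, so that patterns found earlier are not independent support. Symbols came from a table that named 99.7% of the genes. Bins per gene and list were compared as log2(bins + 1) with limma 3.58.1 in R 4.3.3 (trend, all 15 lists and 5 lines in 1 fit, genes with a bin in at least 3 lists), which gives a difference and SE. KO against the 12 other lists, and KO+WT against 6 mutant lists, were compared by two-sided exact permutation tests of mean bins, and single bins by two-sided Fisher's exact tests (scipy 1.17.1). Bins overlapping by 1 nt were to be merged into regions, but no bin of the 53 genes overlapped another. Benjamini-Hochberg adjustment ran over all genes or bins, with a threshold of 0.05. Positions used RefSeq spans of GRCm38.p6, which placed 90.5% of bins. Values in every list are given for genes past a test, genes lost or gained, and Trp53, Mdm2, Cdkn1a, Ccnd1, Ccne1, Cdk1, Cdkn2a, Rb1 and E2f3. The methods were tested on simulated data. Alternatives were a q under 0.005, enrichment no lower than the median (1.36), lists of equal length, a pseudocount of 0.5, no filter on genes, the replicate number as a block, each list left out, and, added after the data were seen, touching bins joined.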

Additional observations from a re-analysis of the deposited data

How the results depend on the processing

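All values are numbers among the 53 genes unless stated, and the cause of a change was not tested where none is named. Counts under an alternative, here or above, that lack the share over all genes describe the 53 genes only. They are not read as traits of these genes.

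With q under 0.005, 38 of the genes were tested. KO+WT against WT gave 5 genes, all lower, beside 10.5% of all 6414 genes lower. KO+13RK gave 1 lower gene, E2f3, against KO+WT (2.88% of all genes lower) and against KO+5RK (0.281% lower). Fisher's exact test passed 8 bins, and the share of all bins passing at this q is not given here. Genes with a bin per list were 33.7 (WT), 18.7 (KO), 24.0 (KO+WT), 20.7 (KO+5RK) and 20.3 (KO+13RK). Genes lost or gained were 5 for KO+WT against WT, 2 for KO+5RK against KO+WT, 1 for KO+13RK against KO+WT and 2 for KO+13RK against KO+5RK. KO+5RK called 44.8% of the bins lost in KO.

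With enrichment at or above the median, 42 of the genes were tested. KO+WT against KO gave 3 genes, beside 6.69% of all 7936 genes higher, and KO+WT against WT gave 1, beside 4.35% lower. No bin passed Fisher's exact test, in these or in all genes. Genes per list were 30, 15.3, 20.7, 17.3 and 16.0 in the same order, 1 gene was lost from KO+WT to KO+13RK, 21 bins were lost from WT to KO, and KO+WT called 49.2% of them.

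At equal list length, KO against WT gave 7 of 37 genes tested (2 lower, 5 higher), beside 21.3% of all genes, and KO+WT against WT gave 0. KO against the 12 lists gave 3 by the permutation test. The direction of these 3 and the share of all genes passing are not given here, so the 3 are not read as loss or gain. Genes per list were 22 for WT, 27.3 for KO, 21.0 for KO+WT, 23.7 for KO+5RK and 26.0 for KO+13RK. Lost or gained were 4 for KO against WT, 0 for KO+WT against WT and for KO+5RK against KO+WT, and 1 for KO+13RK against KO+WT and against KO+5RK. Bins lost from WT to KO were 15, of which KO+WT called 82.2%, KO+5RK 75.6% and KO+13RK 64.4%.

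With touching bins joined, KO against WT gave 9 (23.3% of all genes lower) and KO+WT against KO 3 (11.4% higher). KO+WT against WT gave 1 (2.60% lower) and KO+13RK against KO+WT 1 (1.45% lower). Leaving out any WT list takes Rb1 out of the test, since it then has a bin in 2 lists. The limma contrast of KO with the 12 lists gave 9 where the permutation test gave 0.

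Leaving out 1 list at a time, KO+WT against KO gave 4 to 7 genes, KO+WT against WT 0 to 3 and KO+13RK against KO+WT 0 to 1. Fisher's test gave 0 bins without any single KO list and up to 17 without another list. Genes lost or gained ranged from 3 to 8 for KO+WT against KO, 2 to 6 for KO+WT against WT, 1 to 2 for KO+5RK against KO+WT, 0 to 2 for KO+13RK against KO+WT and 0 to 3 for KO+13RK against KO+5RK.

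Replicate numbers did not pair the lists. Deviations of same-numbered lists correlated between -0.0370 and 0.0154 over 30 pairs, and 3 of 15 lists correlated best with their own number. With the replicate block, limma called 16 genes lower in KO against WT, beside 31.81% of all 9852 genes lower. It called 6 higher in KO+WT against KO (14.04% of all genes higher) and 2 lower in KO+WT against WT (3.299% lower). The other pairs gave 0. No alternative reversed a called difference.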
